A study of Mus musculus with 18 samples.

Results

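The mitochondrial ribosomal proteins of mouse liver were taken as all loci that carry a gene identifier and a symbol of Mrpl or Mrps followed by a digit, with pseudogene symbols left out. The rule found 80 of 31099 loci, 49 named for the large and 31 for the small subunit, which stand for 77 different genes on 17 chromosomes. Of these loci 74 had enough counts to be tested. Placed by where the protein sits in the ribosome rather than by name, 51 loci belong to the large subunit, of which 47 were tested, and 28 to the small subunit, of which 26 were tested. The remaining locus, Mrps36, carries a ribosomal name but its protein is now known as a component of the 2-oxoglutarate dehydrogenase complex.

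Polyadenylated liver RNA came from 8-week-old mice of a mixed C57BL/6 and SV129 background, fed for 48 h. The mice were Ppara-null (Ppara-/-, KO here) or wild type (Ppara+/+, WT here). Each genotype received chow with 0.5% fenofibrate, chow with 0.1% Wy14,643 (Wy here) or control chow, which gives the groups KO fenofibrate, KO Wy, KO control, WT fenofibrate, WT Wy and WT control. Both compounds are agonists of PPARA, the fatty acid sensing nuclear receptor of hepatocytes. Each group has 3 libraries and each library is a pool of 3 to 5 livers, so p-values measure the spread between pools. Pools held 5 livers in WT control, 4 or 5 in WT Wy and KO control, and 3 in WT fenofibrate. They held 3 or 4 in KO Wy and KO fenofibrate, so pool size went partly with diet. The labels give the deletion for the animal and name no cell type. Ppara itself had 1134 to 2328 counts in the KO libraries and 5214 to 9045 in the WT libraries, and was lower by 1.96 ± 0.19 on the log2 scale in KO control than in WT control (edgeR, adjusted p = 7.3e-07).

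Mitochondria keep a ribosome of their own, related to that of bacteria, which makes a small set of membrane proteins of the respiratory chain and ATP synthase. Its RNAs are encoded by mitochondrial DNA, whereas all of its proteins are encoded in the nucleus, made in the cytosol and imported. The large subunit forms peptide bonds and feeds the new chain into the inner membrane, and the small subunit binds and decodes the messenger. Some of the proteins have a counterpart in bacteria and others were added in mitochondria. In liver, PPARA is known for its control of fatty acid oxidation in mitochondria and peroxisomes.

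Library depth was 68.9 to 151 M counts. Mup transcripts, the major urinary proteins, took 46.0% to 71.4% of them, and their share was 46.0% to 56.2% in the WT libraries on either agonist, against 64.9% to 69.7% in the WT controls. Levels are therefore given as CPM, counts scaled to an effective library size from trimmed means (TMM), and every change is relative to the bulk of genes. Scaled by library totals instead, the median of all 14241 genes tested moved to 0.79 with Wy and 0.82 with fenofibrate in WT, on the log2 scale. In a whole liver, fewer cells of a type and less RNA per cell cannot be told apart.

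Not every member could be read. Mrpl17, Mrpl40, Mrpl43, Mrpl52 and Mrps34 had 0 counts in all 18 libraries, and each lies wholly inside another locus, Hira for Mrpl40 and Peo1 for Mrpl43, so they were taken as not measured. Mrpl53, a protein of the large subunit stalk, also lies inside another locus, Ccdc142, and had 7519 counts. The single-exon Mrps21 locus on chromosome 7 had 82 counts in all and was not tested, while the Mrps21 locus on chromosome 3 was. The symbol Mrpl23 covers the gene on chromosome 7 and a single-exon locus on chromosome 2 that GENCODE annotates as the processed pseudogene Mrpl23-ps1. Mrps18b was counted at a locus on the minus strand, which is the annotated gene (chr17:35910379-35916389), and at one on the plus strand (chr17:35896946-35912215). GENCODE lists no gene with a symbol beginning with Mrp on the plus strand there, and genes under other names were not searched. Since the counting rule for overlapping loci and strands is not given in the sources used here, both Mrps18b loci may hold the same reads. The Mrpl33 locus overlaps the gene Bre, and its 726 counts in all libraries are uncertain as a measure of Mrpl33.

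Levels of the measured members differed widely. Per kilobase of the length listed with the counts, Mrpl12 was the most abundant in WT control livers at 28.6 ± 3.00 CPM per kb (SD, n = 3). Mrpl12 is the stalk protein that recruits translation factors. Mrpl28 followed at 14.6 ± 1.38 CPM per kb and Mrps16 at 14.5 ± 1.57 CPM per kb, and these differed by less than their spread. The lowest were Mrpl33 at 0.0571 CPM per kb, Mrps25, a small subunit protein added in mitochondria, at 0.564 ± 0.0690 CPM per kb, and Mrpl19 at 0.601 ± 0.0549 CPM per kb. Mrps25 and Mrpl19 also differed by less than their spread. The median member stood at 3.92 CPM per kb in WT controls.

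The summed level of all tested members was highest in the WT mice given an agonist. It was 1052, 862 and 929 CPM in WT fenofibrate, 1009.8, 957 and 1003 CPM in WT Wy, and 875, 764 and 800.2 CPM in WT control. All WT Wy libraries lay above the WT controls, and WT fenofibrate replicate 2 lay within their range. In KO livers it was 778, 853 and 633 CPM on fenofibrate, 703, 664 and 798 CPM on Wy, and 799, 832 and 780 CPM on control chow, so that 2 KO Wy libraries lay below the range of the KO controls and 1 within it, and 2 KO fenofibrate libraries lay below that range and 1 above it. The ratio of the large to the small subunit sum stayed between 1.98 and 2.13 across the 18 libraries.

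**Figure D1:**
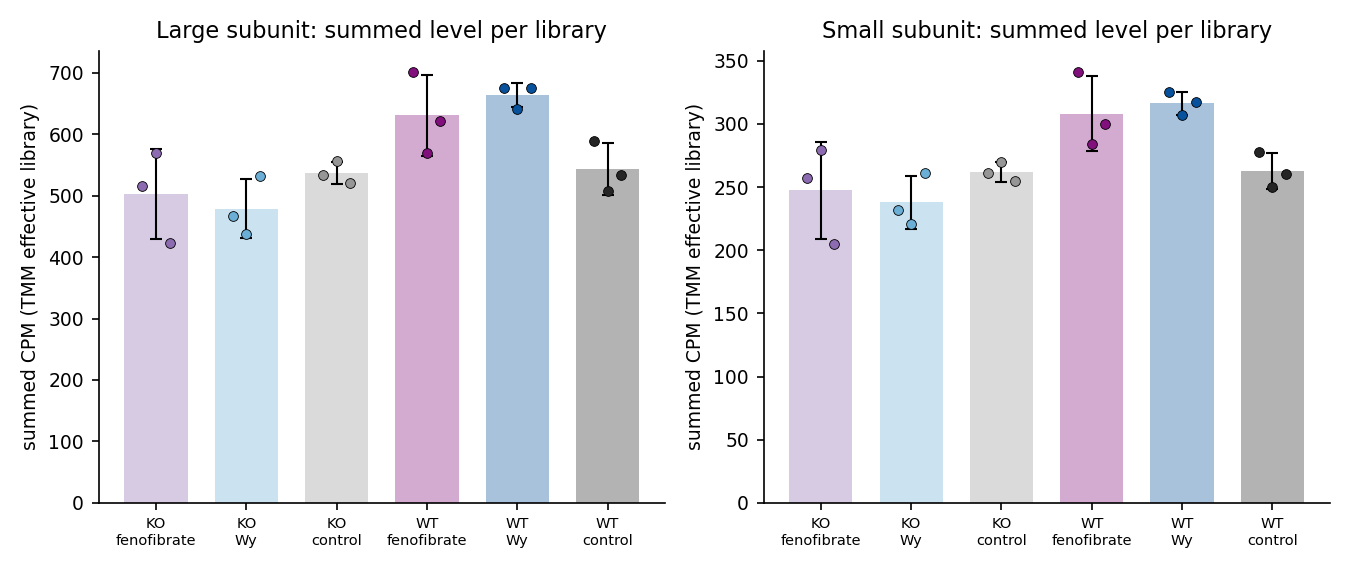
Summed CPM per library of the tested large subunit loci (left, 47 loci) and small subunit loci (right, 26 loci). Points are libraries, bars are means of 3 and error bars are SD; the WT fenofibrate and WT Wy means stand above WT control in both panels.

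Many mitochondrial ribosomal protein genes rose by modest amounts with Wy in WT liver. Of 74 members tested, 28 rose and 1 fell with Wy against WT control (edgeR quasi-likelihood test, adjusted p under 0.05), which is 37.8% higher and 1.35% lower; over all genes tested 20.2% were called higher and 19% lower. The median change was 0.25 on the log2 scale, a fold of 1.19, against -0.02 over all genes, and 67 of the 74 estimates were positive. The 28 rises ran from a fold of 1.22 for Mrps18a to one of 1.70 for Mrpl45. Without respect to the test, all 3 Wy libraries lay above all 3 controls for 48 members and below them for 2, against 28% and 27.7% of all genes.

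In the large subunit 20 of 47 loci rose and 1 fell (42.6% and 2.13%), with a median of 0.27 on the log2 scale. In the small subunit 7 of 26 rose and 0 fell, with a median of 0.24, and its share of 26.9% was nearer to the 20.2% of all genes. Beside Mrpl45, Mrpl50, Mrpl33, Mrpl15 and Mrpl51, the large subunit rises included Mrpl21, Mrpl54, Mrpl20 and Mrpl13. In the small subunit they were Mrps18b at both loci, Mrps6, Mrps2, Mrps12, Mrps28 and Mrps11. Members with a bacterial counterpart (16 of 46 rose, 1 fell, median 0.24) and members added in mitochondria (11 of 27 rose, 0 fell, median 0.28) gave similar medians, and a difference between these classes was not tested. Mrps18a and both Mrps18b loci, further relatives of bacterial S18 beside Mrps18c, were counted with those added in mitochondria. Mrps36, the misnamed enzyme subunit, rose by 0.56 ± 0.10 on the log2 scale (adjusted p = 0.00028).

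Mrpl45, which anchors the large subunit to the inner membrane near the exit of the peptide tunnel, changed most. It had 14.9, 14.7 and 16.2 CPM in WT Wy livers, against 8.91, 8.78 and 9.22 CPM in WT control livers. The groups did not overlap, and the change was 0.77 ± 0.10 on the log2 scale (edgeR, adjusted p = 8.7e-06). Mrps18b, 1 of 3 mammalian relatives of the bacterial small subunit protein S18, had 28.6, 27.5 and 28.1 CPM at its annotated locus in WT Wy, against 17.4, 17.4 and 17.6 CPM in WT control. Its change was 0.69 ± 0.12 (adjusted p = 0.00011). The plus-strand locus also gave 0.69 ± 0.12, but it may hold the same reads, so this value is not independent of the first. Mrpl50, a large subunit protein added in mitochondria, had 15.7, 16.8 and 16.1 CPM in WT Wy, against 11.2, 10.1 and 9.80 CPM in WT control (0.64 ± 0.12, adjusted p = 0.00032). In these genes the Wy libraries lay closer to each other than to any control.

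A few members went the other way or stayed uncertain. Mrpl23, whose bacterial counterpart lines the exit of the tunnel, had 8.18, 8.25 and 9.08 CPM on chromosome 7 in WT Wy, against 12.9, 9.26 and 11.5 CPM in WT control. It fell by 0.40 ± 0.15 on the log2 scale (adjusted p = 0.038), a call that was lost without any 1 of 7 libraries. Its estimate turned to 0.42 when libraries were scaled by their totals, where the median of all genes was 0.79. The Mrpl33 locus had 0.540, 0.442 and 0.506 CPM in WT Wy, against 0.316, 0.370 and 0.267 CPM in WT control, and its rise of 0.64 ± 0.19 (adjusted p = 0.011) was lost without WT control replicate 3. Of the 28 rises, 16 were called whichever 1 of the 18 libraries was left out, and the count was 18 without WT control replicate 2 and also 18 without WT control replicate 3. WT Wy replicate 3 held 321 counts of Xist, against 1 to 7 in the other libraries, and without it 26 members rose.

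The starts of these genes can be set beside their changes. RefSeq (GRCm38.p6) gave a window of 250 bases before to 50 after the start for 68 of the 77 member genes and for 27025 genes in all. The windows below are those of Mrps18b and Mrpl45, the members with the largest changes, and of the head-to-head pair Mrpl46 and Mrps11, each printed 5′ to 3′ on the strand of its gene. Capitals mark matches to the motif letters searched.
Mrps18b, chr17:35916391-35916690, minus strand: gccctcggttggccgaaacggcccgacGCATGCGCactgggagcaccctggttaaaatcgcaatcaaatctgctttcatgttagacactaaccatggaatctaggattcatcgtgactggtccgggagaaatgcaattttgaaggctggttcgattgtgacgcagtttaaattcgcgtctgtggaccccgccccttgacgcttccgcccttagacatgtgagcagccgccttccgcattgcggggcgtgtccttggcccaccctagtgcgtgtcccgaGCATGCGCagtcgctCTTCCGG
Mrpl45, chr11:97315466-97315765, plus strand: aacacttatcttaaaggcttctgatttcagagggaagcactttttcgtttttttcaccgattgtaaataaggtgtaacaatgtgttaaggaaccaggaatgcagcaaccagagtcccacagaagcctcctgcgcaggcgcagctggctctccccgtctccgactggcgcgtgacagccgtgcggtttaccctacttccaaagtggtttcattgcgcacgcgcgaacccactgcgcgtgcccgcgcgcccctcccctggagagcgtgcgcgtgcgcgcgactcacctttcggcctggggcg
Mrpl46, chr7:78783040-78783339, minus strand: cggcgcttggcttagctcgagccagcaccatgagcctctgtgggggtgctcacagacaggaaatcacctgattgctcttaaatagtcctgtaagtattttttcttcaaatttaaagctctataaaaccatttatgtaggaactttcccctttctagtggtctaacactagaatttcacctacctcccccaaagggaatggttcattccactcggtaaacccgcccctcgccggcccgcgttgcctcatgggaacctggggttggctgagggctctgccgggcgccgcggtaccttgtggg
Mrps11, chr7:78782881-78783180, plus strand: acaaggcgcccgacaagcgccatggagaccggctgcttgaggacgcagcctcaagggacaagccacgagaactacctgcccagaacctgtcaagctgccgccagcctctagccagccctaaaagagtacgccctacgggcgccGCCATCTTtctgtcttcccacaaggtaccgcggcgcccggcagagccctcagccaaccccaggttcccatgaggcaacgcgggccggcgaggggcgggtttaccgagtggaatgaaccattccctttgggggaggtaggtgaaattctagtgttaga

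In the Mrps18b window the letters GCATGCGC, the core of the motif of NRF1, a regulator of nuclear genes for mitochondria, begin at -223 and again at 28 relative to the start, and CCGGAAG, the ETS motif bound by GABPA, begins on the other strand at 43. The Mrps11 window holds AAGATGGC, the motif of YY1, on the other strand at -107, while the Mrpl45 and Mrpl46 windows hold no match to the letters searched. Other forms of these motifs were not searched, so a window without a match cannot be said to lack a site. Over the member windows, both strands searched, CCGGAAG occurred in 24 (35.3%, against 9.12% of all windows), AAGATGGC in 12 (17.6%, against 2.88%) and GCATGCGC in 8 (11.8%, against 2.8%). The NRF1 core preceded by GC, a longer form of the same motif, occurred in Mrpl9, Mrpl32 and Mrpl39 (4.41%, against 0.977%). The direct repeat bound by PPARA with RXR, AGGTCA and again AGGTCA with any base between, occurred in 0 member windows and in 0.0444% of all windows, and TNAAGGTCA, the ESRRA motif, in 0 and 1.26%. At such low shares over all windows, 0 among 68 member windows cannot set members apart from other genes. All windows include those of genes not tested in these livers, and shares over tested genes alone were not taken. Member windows had a median of 58.2% G and C and 21 CpG, against 52.7% and 7 over all windows. The letters CCGGAAG and GCATGCGC are themselves rich in G and C, while AAGATGGC, TNAAGGTCA and the direct repeat are not. Among members with a window, CCGGAAG occurred in 7 of the 23 that rose with Wy in WT and in 14 of the 41 tested that did not, AAGATGGC in 6 and 6, and GCATGCGC in 3 and 4; these shares were not tested.

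Mrpl46 and Mrps11, a large and a small subunit gene, are read in opposite directions from windows that share 141 bases, and their loci overlap. With Wy, Mrpl46 had 9.58, 8.86 and 9.56 CPM in WT, against 7.82, 6.70 and 6.57 CPM in WT control (0.41 ± 0.13, adjusted p = 0.019). Mrps11 had 6.95, 6.18 and 6.32 CPM in WT Wy, against 5.75, 4.54 and 4.87 CPM in WT control (0.36 ± 0.13, adjusted p = 0.034). Both genes of the pair were higher in every Wy library, and reads of the overlap may be shared. Starts on the opposite strand were counted up to 1000 bases upstream or 500 bases downstream of a gene's own start. By this rule 27 of 74 tested members (36.5%) had such a neighbour among the tested genes, against 15.8% of all tested genes. The 27 include both Mrps18b loci, which may hold the same reads. Mrps12, a protein of the decoding centre, pairs in this way with Sars2, the mitochondrial seryl-tRNA synthetase: with Wy in WT, Mrps12 rose by 0.51 ± 0.11 on the log2 scale (adjusted p = 0.0014) and the estimate for Sars2 was 0.19 ± 0.09 (adjusted p = 0.12).

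**Figure D2:**
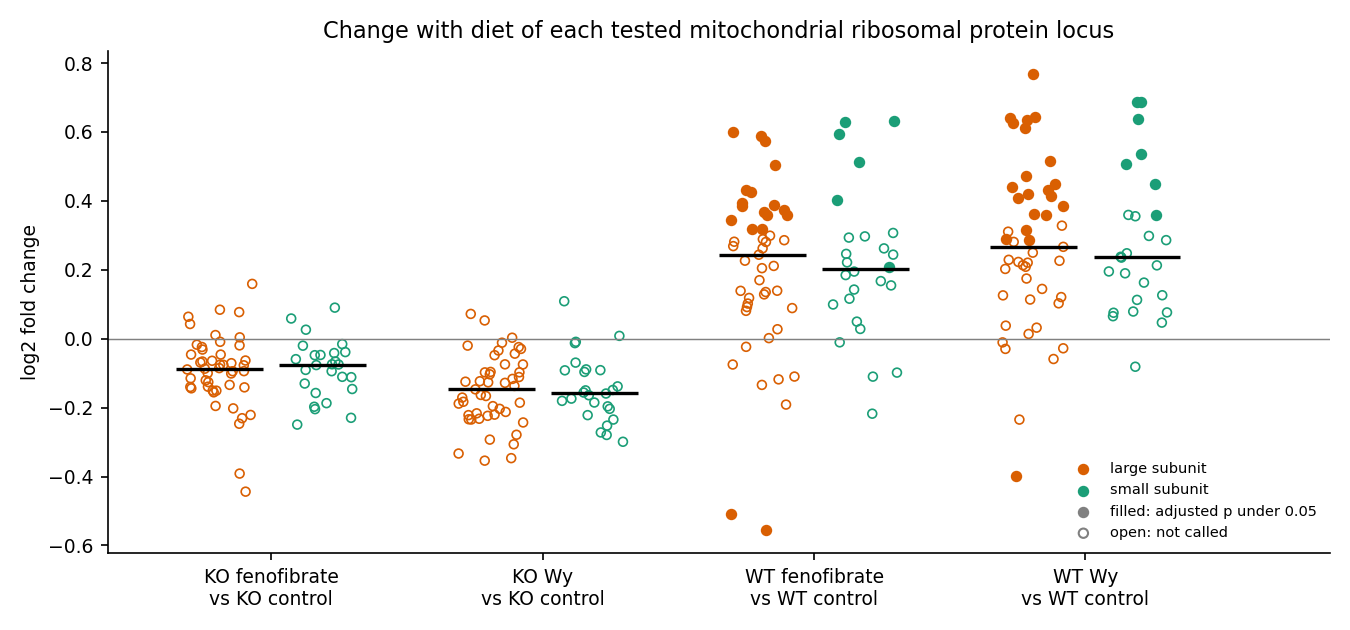
log2 fold change of each tested large subunit (orange) and small subunit (green) locus for each diet against its control, in KO and in WT. Filled points passed an adjusted p of 0.05 and lines are medians, which lie at 0.27 and 0.24 for WT Wy and at -0.15 and -0.16 for KO Wy.

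Fenofibrate gave a change of similar size in WT livers. Against WT control 23 of 74 members rose and 2 fell (31.1% and 2.7%), where 19.3% of all genes were called higher and 17.6% lower. The median was 0.22 on the log2 scale, a fold of 1.17, against 0.01 over all genes, and 62 estimates were positive. In the large subunit 16 of 47 rose and 2 fell, with a median of 0.24, and in the small subunit 6 of 26 (23.1%) rose and 0 fell, with a median of 0.20. Without WT fenofibrate replicate 1 these medians were 0.16 and 0.11. All 3 fenofibrate libraries lay above the controls for 29 members and below them for 5, against 25.1% and 23.6% of all genes. This comparison shares its control libraries with that of Wy.

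With fenofibrate the largest rise was at the annotated locus of Mrps18b, with 29.0, 25.6 and 26.5 CPM in WT fenofibrate, against 17.4, 17.4 and 17.6 CPM in WT control (0.63 ± 0.12, adjusted p = 0.00026). Mrps2, the counterpart of the bacterial small subunit protein S2, had 12.8, 12.6 and 12.2 CPM in WT fenofibrate, against 7.80, 8.43 and 8.14 CPM in WT control (0.63 ± 0.10, adjusted p = 5e-05). Mrpl45 had 14.5, 12.95 and 13.4 CPM in WT fenofibrate, against 8.91, 8.78 and 9.22 CPM in WT control (0.60 ± 0.10, adjusted p = 0.00014). In all of these the groups were well apart. Mrpl21, the counterpart of bacterial L21, had 13.5, 10.9 and 11.2 CPM in WT fenofibrate, against 9.01, 6.92 and 7.75 CPM in WT control, a narrower gap (0.59 ± 0.14, adjusted p = 0.0025).

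The falls were at the Mrpl23 loci. The gene on chromosome 7 had 8.53, 6.48 and 7.83 CPM in WT fenofibrate, against 12.9, 9.26 and 11.5 CPM in WT control, and fell by 0.56 ± 0.15 (adjusted p = 0.0057; 0.056 without WT fenofibrate replicate 2; 0.25 on the log2 scale with library totals). The pseudogene locus on chromosome 2 had 1.13, 0.756 and 0.991 CPM in WT fenofibrate, against 1.52, 1.27 and 1.31 CPM in WT control. It fell by 0.51 ± 0.19 (adjusted p = 0.047), a call lost without any 1 of 11 libraries, and with library totals it turned to 0.29. The median of all genes with library totals was 0.82, above the values of both Mrpl23 loci. Of the 23 rises, 10 were called whichever library was left out, and the count dropped to 11 without WT fenofibrate replicate 1, the library with the highest member sum, to 13 without WT control replicate 2 and to 14 without WT control replicate 3.

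**Figure D3:**
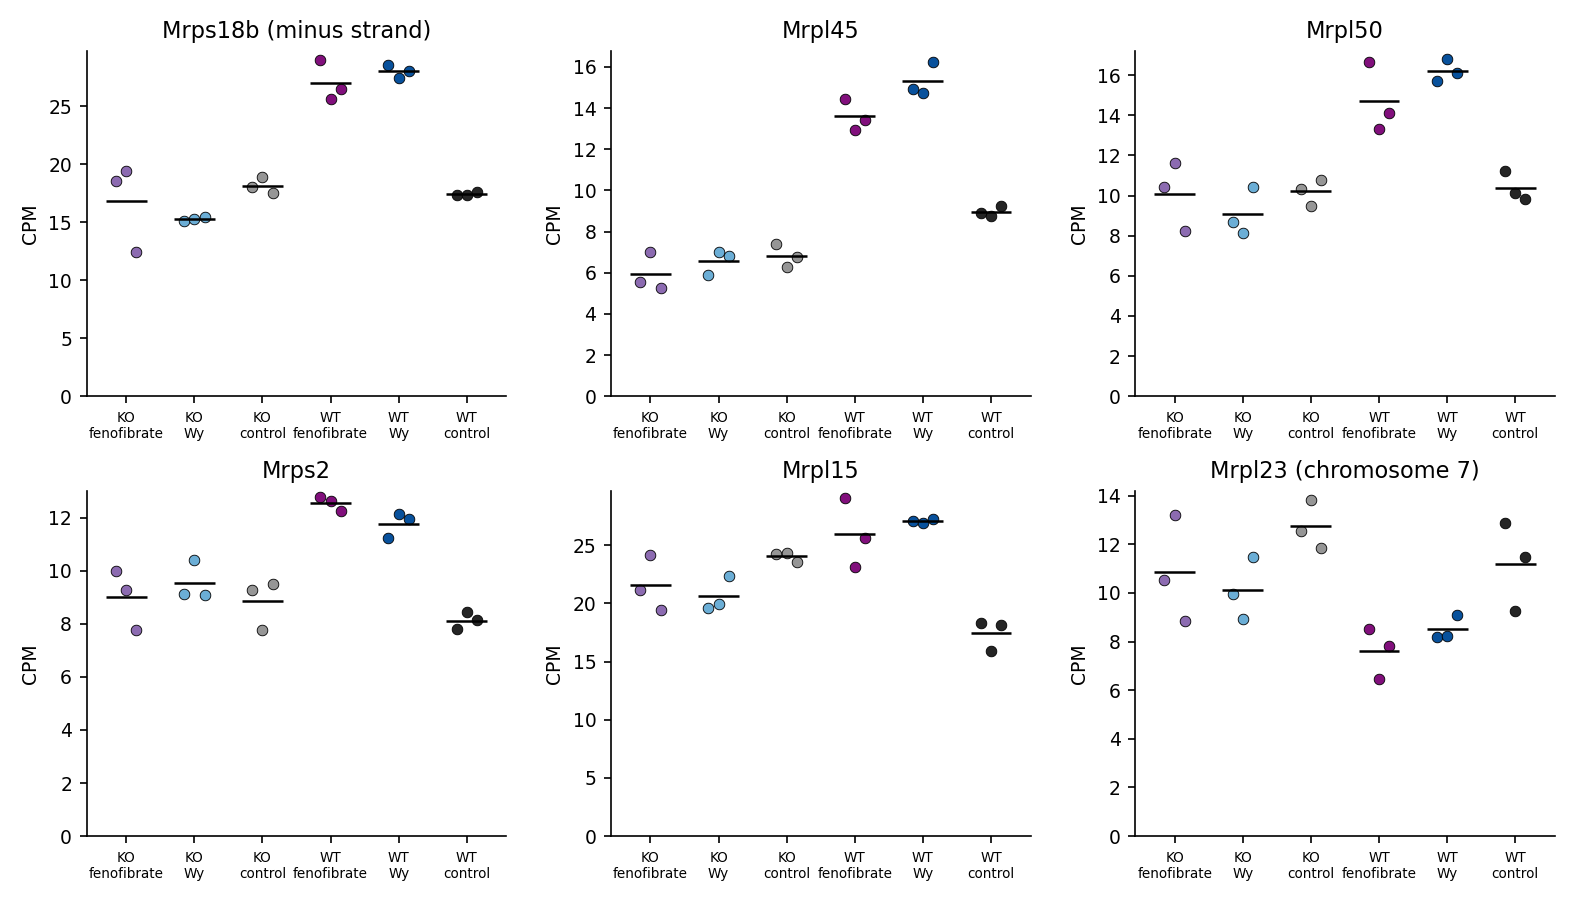
CPM of 6 members in every library, with lines at the group means of 3 libraries. Mrps18b, Mrpl45, Mrpl50 and Mrps2 stand higher in WT fenofibrate and WT Wy than in the other groups, and Mrpl15 is also high in KO control. Mrpl23 on chromosome 7 is low in the WT agonist groups on this scale. Its sign turns with library totals, where it stays below the median of all genes.

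Between the agonists, at different doses in the chow, 0 of 74 members differed in WT livers (edgeR adjusted p under 0.05; 0.323% of all genes were called higher with Wy and 0.576% lower), and 2, Mrpl34 and Mrps12, had an unadjusted p under 0.05, against 12.3% of all genes. DESeq2 also called 0. The median of Wy minus fenofibrate was 0.08 on the log2 scale, with 56 of 74 estimates positive; by subunit it was 0.08 and 0.09, but 0.17 and 0.16 without WT fenofibrate replicate 1, and 0.01 and 0.03 without WT fenofibrate replicate 2. The large subunit median was 0.13 without WT Wy replicate 2. The Wy libraries lay above the fenofibrate libraries for 8 members and below them for 1 (10.8% and 11.3% of all genes). For Mrpl45 the estimate was 0.17 ± 0.10 (adjusted p = 0.51), with a 95% interval from -0.04 to 0.38. For Mrps2 it was -0.09 ± 0.10 (adjusted p = 0.75), with an interval from -0.29 to 0.11. Intervals of this width still hold differences as large as the median change with either agonist.

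In Ppara-null livers edgeR called no member with either agonist, and DESeq2 called 1, Mrpl48 with fenofibrate. With Wy against control chow in KO livers 0 of 74 members were called by edgeR in either direction, where 0.133% of all genes were called higher and 0.105% lower, and 11 had an unadjusted p under 0.05, against 14% of all genes. DESeq2 called 0 with Wy as well. The median was -0.15 on the log2 scale, a fold of 0.899, against 0.02 over all genes, and 69 of 74 estimates were negative. The medians were -0.15 in the large and -0.16 in the small subunit, -0.23 and -0.26 without KO Wy replicate 3, and -0.09 in both without KO Wy replicate 2. All 3 KO Wy libraries lay below all 3 KO controls for 16 members and above them for 0, against 10.2% and 11.9% of all genes. When libraries were scaled by their totals 61 members were called lower, against 20.8% of all genes, with the median of all genes at -0.33. Kupffer cell markers summed to 118 to 146 CPM in KO Wy, against 92.4 to 104 CPM in KO control, and endothelial markers to 98.0 to 115 CPM in KO Wy, against 87.8 to 94.7 CPM in KO control. Of the 10 Kupffer markers 0 were called and all 10 estimates were positive. An unadjusted p under 0.05 was found for 8 of them, against 14% of all genes. All 3 KO Wy libraries lay above all 3 KO controls for 9 of them, against 11.9% of all genes. The part of these markers in the members' values was not tested.

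Among the KO Wy members below their controls were both Mrps18b loci, Mrps6, Mrps12 and Mrpl15. Mrps18b at its annotated locus had 15.1, 15.3 and 15.4 CPM in KO Wy, against 18.04, 18.9 and 17.5 CPM in KO control, and did not pass the test (-0.25 ± 0.12, adjusted p = 0.34). Mrpl45 had 5.90, 7.03 and 6.82 CPM in KO Wy, against 7.37, 6.27 and 6.74 CPM in KO control, which overlap. Mrps2 gave the highest estimate, 0.11 ± 0.10 on the log2 scale, at 9.14, 10.4 and 9.09 CPM in KO Wy, against 9.29, 7.76 and 9.49 CPM in KO control.

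With fenofibrate in KO livers 0 of 74 members were called by edgeR, where 0.997% of all genes were called higher and 0.548% lower, and 3, Mrpl48, Mrpl9 and Mrpl23 on chromosome 2, had an unadjusted p under 0.05, against 15.2% of all genes. The median was -0.09 on the log2 scale, with 10 of 74 estimates positive, and the libraries lay below the controls for 3 members and above them for 0 (8.03% and 8.15% of all genes). The sum was low in KO fenofibrate replicate 3, and without that library the medians moved to 0.01 in the large and 0.03 in the small subunit, while without KO fenofibrate replicate 2 both were -0.19, against -0.09 and -0.08 with all libraries. Mrpl48, a large subunit protein added in mitochondria, came nearest to the threshold at -0.39 ± 0.11 (adjusted p = 0.096), and DESeq2 called it lower, at -0.40 ± 0.13 (adjusted p = 0.044).

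The difference between genotypes was tested directly as the diet change in KO minus that in WT. For Wy 32 of 74 members were lower by this measure and 0 higher, where 14.1% of all genes were called lower and 14% higher, and the median was -0.44 on the log2 scale, against 0.05 over all genes. In the large subunit 22 of 47 were lower and in the small subunit 9 of 26. For fenofibrate 12 of 74 were lower and 0 higher, where 11.6% of all genes were called lower and 10.7% higher, so the share of members, 6 of 47 in the large and 5 of 26 in the small subunit, was close to that of all genes; the median was -0.33, against 0.03. By subunit the fenofibrate medians were -0.32 and -0.31, and -0.21 and -0.19 without KO fenofibrate replicate 3. By the same measure 9 of 10 Kupffer cell markers were higher for Wy and 7 for fenofibrate, and 5 of 8 hepatocyte markers were higher for Wy and 4 for fenofibrate.

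Mrps18b had the largest difference for Wy, -0.94 ± 0.16 at its annotated locus (adjusted p = 0.0003) and -0.97 ± 0.17 at the plus-strand locus (adjusted p = 0.00031), which may hold the same reads. Mrps6, the counterpart of bacterial S6 in the small subunit, had 2.20, 1.82 and 2.12 CPM in KO Wy and 2.57, 2.76 and 2.22 CPM in KO control. In WT it had 3.92, 3.63 and 3.70 CPM with Wy and 2.85, 2.00 and 2.38 CPM on control chow, so the difference of the changes was -0.94 ± 0.20 (adjusted p = 0.0018). WT Wy stood above every other group of these 4 and KO Wy below WT Wy in every library. For fenofibrate the largest differences were those of Mrpl45 (-0.80 ± 0.15, adjusted p = 0.00063), Mrps18b at its annotated locus (-0.74 ± 0.16, adjusted p = 0.0027) and Mrpl15 (-0.73 ± 0.14, adjusted p = 0.00072). The Wy count was 18 without WT control replicate 2, KO control replicate 2, KO Wy replicate 1 or KO Wy replicate 2, and 19 without WT control replicate 3. The fenofibrate count was 6 without WT control replicate 2 and 7 without KO control replicate 2, but 22 without WT fenofibrate replicate 2 and 25 without KO fenofibrate replicate 2.

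**Figure D4:**
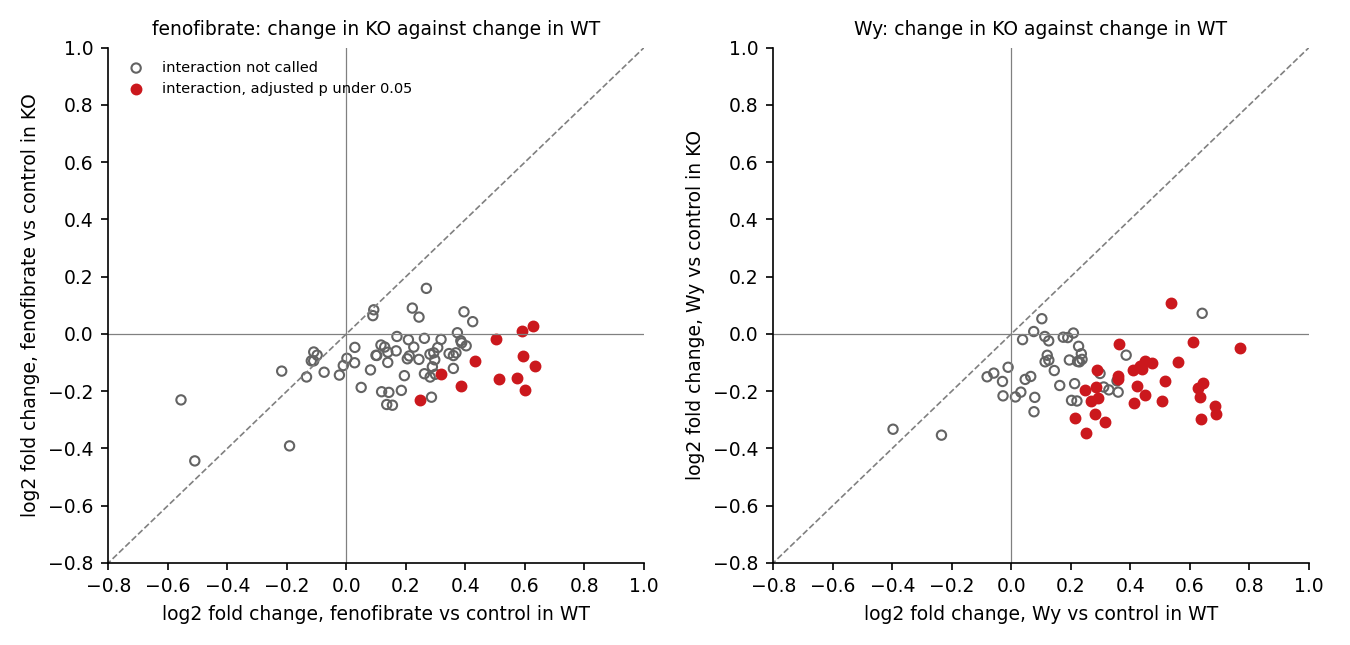
log2 fold change of each tested member in KO (vertical) against that in WT (horizontal), for fenofibrate (left) and Wy (right), with a dashed line of equal change. Most points lie right of and below the line, and members whose change differed between genotypes (12 for fenofibrate, 32 for Wy) are filled.

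On control chow the genotypes differed little. In KO control against WT control 1 of 74 members was higher and 2 were lower, where 4.28% of all genes were called higher and 5.66% lower, and all 3 KO libraries lay above the WT controls for 2 members and below them for 7 (14.4% and 15.4% of all genes). The medians were -0.04 in the large and -0.01 in the small subunit, 0.04 and 0.06 without WT control replicate 1, and -0.08 and -0.06 without WT control replicate 2. With library totals they were 0.29 and 0.32, where the median of all genes was 0.32. Mrpl15, the counterpart of bacterial L15 in the core of the large subunit, had 24.3, 24.3 and 23.5 CPM in KO control, against 18.3, 15.9 and 18.1 CPM in WT control, and was higher by 0.46 ± 0.10 (adjusted p = 0.0035). Its groups did not overlap. Mrpl45 had 7.37, 6.27 and 6.74 CPM in KO control, against 8.91, 8.78 and 9.22 CPM in WT control (-0.40 ± 0.10, adjusted p = 0.018), a call lost without any 1 of 3 libraries. Mrps36 had 5.11, 4.99 and 5.17 CPM in KO control, against 7.19, 6.17 and 6.42 CPM in WT control (-0.37 ± 0.10, adjusted p = 0.028), lost without any 1 of 5.

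Mrpl15 and Mrpl45 differed in where the KO controls stood. With either agonist in WT, Mrpl15 had 29.0, 23.1 and 25.7 CPM on fenofibrate and 27.1, 26.9 and 27.3 CPM on Wy, and the KO controls, at 23.5 to 24.3 CPM, lay within the fenofibrate range. Mrpl45 reached 12.95 to 16.2 CPM in the WT agonist groups, above all KO libraries, which ran between 5.24 and 7.37 CPM.

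The 3 relatives of bacterial S18 differed in their values. Mrps18b rose as given above. Mrps18a, which sits in the large subunit despite its name, had 15.1, 13.8 and 14.9 CPM in WT Wy, against 12.7, 11.5 and 11.6 CPM in WT control (0.29 ± 0.10, adjusted p = 0.028), and its estimate with fenofibrate was 0.17 ± 0.10 (adjusted p = 0.2). Mrps18c had 15.7, 15.7 and 15.2 CPM in WT Wy, against 15.4, 12.4 and 13.8 CPM in WT control (0.16 ± 0.16, adjusted p = 0.44). Their differences from each other were not tested. Mrps30, the other protein with a small subunit name in the large subunit, gave 0.17 ± 0.12 with Wy (adjusted p = 0.26).

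Of the stalk proteins, Mrpl12 had 60.1, 55.9 and 59.1 CPM in WT Wy, against 49.0, 40.4 and 41.9 CPM in WT control (0.41 ± 0.13, adjusted p = 0.018). Mrpl10, the base to which Mrpl12 binds, had 19.5, 18.5 and 18.99 CPM in WT Wy, against 15.9, 13.6 and 14.9 CPM in WT control (0.36 ± 0.10, adjusted p = 0.0088). Both rose with fenofibrate also, by 0.36 ± 0.13 and 0.37 ± 0.10. Mrpl53, read inside Ccdc142, gave 0.22 ± 0.16 with Wy (adjusted p = 0.29).

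Some proteins of this ribosome carry other names. Of 6 such genes tested, 1 (16.7%) rose with Wy, and 1 rose and 1 fell with fenofibrate in WT. Over all genes 20.2% were called higher with Wy, and 19.3% higher and 17.6% lower with fenofibrate. The gene that rose was Ptcd3, a small subunit protein with RNA-binding repeats, at 0.71 ± 0.09 with Wy and 0.77 ± 0.09 with fenofibrate (edgeR, adjusted p = 3.7e-06 and 1.4e-06). Dap3, a GTP-binding protein of the small subunit, fell by 0.32 ± 0.10 with fenofibrate (adjusted p = 0.019) and gave -0.07 ± 0.10 with Wy (adjusted p = 0.63). Whether these genes moved less often than the Mrpl and Mrps genes was not tested.

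In the machinery around the ribosome, some single genes had larger estimates than any member. With Wy in WT the largest was 0.92 for tRNA charging, 0.65 for translation factors and 0.70 for ribosome assembly, against 0.77 for members. With fenofibrate these were 0.98, 0.76 and 0.96, against 0.63 for members. Over all genes tested in WT, 20.2% were called higher and 19% lower with Wy, and 19.3% and 17.6% with fenofibrate. Of 12 mitochondrial translation factors 4 rose with Wy and 5 with fenofibrate in WT and 0 fell, with Gfm1, the elongation factor that moves the ribosome along, at 0.65 ± 0.08 and 0.76 ± 0.08. Tufm, which delivers charged tRNA, gave 0.65 ± 0.08 and 0.50 ± 0.08. Of 20 genes that charge mitochondrial tRNAs 8 rose and 1 fell with Wy and 10 rose and 1 fell with fenofibrate. Ears2, the glutamyl-tRNA synthetase, gave 0.92 ± 0.10 and 0.98 ± 0.10, while Nars2, the asparaginyl-tRNA synthetase, fell by 0.64 ± 0.10 and 0.56 ± 0.10. Of 25 loci for ribosome assembly and rRNA modification 5 (20%) rose and 0 fell with Wy, a share of rises close to that of all genes. With fenofibrate 6 (24%) rose and 1 (4%) fell. Mterf4, which works with Nsun4 on the large subunit, gave 0.69 ± 0.13 with Wy and 0.71 ± 0.13 with fenofibrate. All the changes named here had adjusted p of 0.00044 or less.

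Upstream of the ribosome, 7 of 17 genes for expression and upkeep of mitochondrial DNA rose with Wy and 8 with fenofibrate in WT, and 0 fell. Tfam, which packages mitochondrial DNA and starts its transcription, rose by 0.63 ± 0.10 and 0.73 ± 0.10 (adjusted p = 4e-05 and 7.5e-06). Hsd17b10, a fatty acid enzyme that is also a subunit of mitochondrial RNase P, rose by 1.04 ± 0.11 and 0.74 ± 0.11. Of 12 loci for regulators of mitochondrial biogenesis 3 rose and 2 fell with Wy (25% and 16.7%), and 4 rose and 2 fell with fenofibrate (33.3% and 16.7%). Over all genes the shares were 20.2% higher and 19% lower with Wy, and 19.3% and 17.6% with fenofibrate. With Wy, Gabpa, whose ETS motif was searched above, rose by 0.29 ± 0.10 (adjusted p = 0.028) and Esrra fell by 0.28 ± 0.10 (adjusted p = 0.031). Ppargc1a, the coactivator of these factors, gave -0.20 ± 0.36 with Wy (adjusted p = 0.69) and 0.24 ± 0.36 with fenofibrate (adjusted p = 0.64), which leaves wide room for a change. Nrf1 gave -0.17 ± 0.12 with Wy (adjusted p = 0.29).

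The mitochondrial ribosome was not alone in these changes. Of 98 cytosolic ribosomal protein loci, 45 rose and 0 fell with Wy in WT, with a median of 0.32 on the log2 scale, and 25 rose and 0 fell with fenofibrate, with a median of 0.24. Of 83 loci for nuclear-encoded respiratory chain subunits, 43 rose and 0 fell with Wy, with a median of 0.35, and 24 rose and 0 fell with fenofibrate, with a median of 0.15. In KO with either agonist 0 of both groups were called. Members therefore cannot be called particular in this respect, and no difference between the groups was tested. The 7 tested loci of mitochondrial DNA, not sorted here into messages and other RNAs, gave 1 rise and 1 fall with Wy and 2 rises and 1 fall with fenofibrate in WT. Their estimates ran from -2.59 to 1.02 on the log2 scale with Wy and from -3.01 to 0.38 with fenofibrate. Over all genes 20.2% were called higher and 19% lower with Wy, and 19.3% and 17.6% with fenofibrate. PPARA target genes changed far more: all 10 tested rose in WT, with medians of 5.40 on the log2 scale with fenofibrate and 5.66 with Wy. Pdk4, a kinase that shuts off pyruvate dehydrogenase, rose by 7.82 ± 0.30 with Wy, and Ehhadh, an enzyme of peroxisomal fatty acid oxidation, by 6.73 ± 0.15 (adjusted p = 4.5e-13 and 9e-16).

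**Figure D5:**
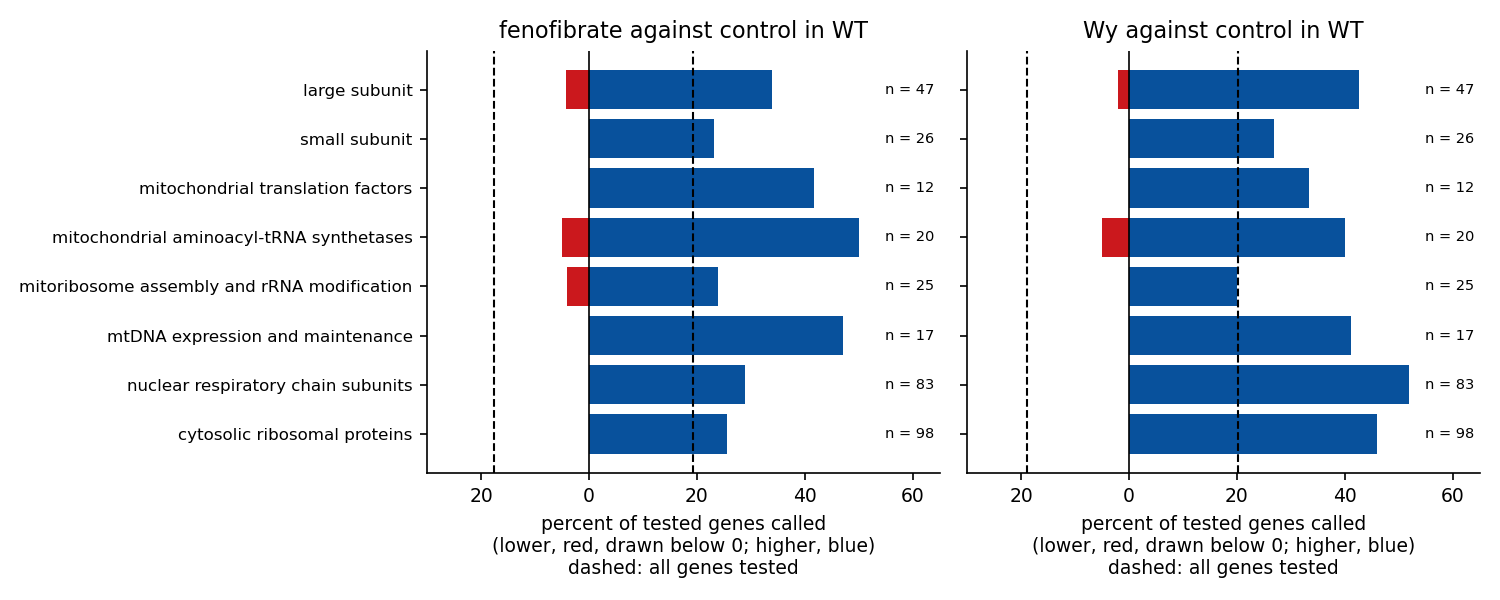
Percent of tested loci called higher (blue) or lower (red) with fenofibrate and with Wy in WT, for both subunits and related gene groups, with the number tested at the right. Dashed lines are the shares of all genes tested, 19.3% higher and 17.6% lower for fenofibrate and 20.2% higher and 19% lower for Wy.

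The members also varied together from library to library. Over the 18 libraries, the log2 level of a member correlated with the mean of the other members at a median r of 0.897, and 69 of 74 exceeded 0.5. The exceptions were Mrpl23 at both loci (-0.23 on chromosome 7 and -0.12 on chromosome 2), Mrps31, Mrpl48 and Mrpl33. The genes outside the family most like the member mean were Ndufs4, a subunit of complex I (r = 0.98), Pmpcb, a subunit of the protease that trims imported proteins (r = 0.98), and Coa3, an assembly factor of cytochrome oxidase (r = 0.98). These are descriptions over libraries that share groups, depth and scaling. Within groups the sums of cytosolic ribosomal proteins showed like spreads: they ran from 6308 to 8276 CPM in KO fenofibrate, where the member sum ran from 633 to 853 CPM.

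Markers of liver cell types moved with the diets in WT as well. Over all genes in WT, 20.2% were called higher and 19% lower with Wy, and 19.3% and 17.6% with fenofibrate. Of 8 hepatocyte markers tested 6 fell and 0 rose with each agonist in WT, and their sum was 20266 to 21717 CPM in WT fenofibrate and 21563 to 25588 CPM in WT Wy, against 46119 to 47775 CPM in WT control. Of 10 Kupffer cell markers 8 fell and 0 rose with each agonist, with sums of 47.0 to 61.5 CPM in WT fenofibrate and 49.4 to 53.2 CPM in WT Wy, against 79.1 to 87.0 CPM in WT control. Of 8 endothelial markers 1 rose and 3 fell with each agonist, with sums of 69.1 to 76.1 CPM in WT fenofibrate and 69.3 to 71.8 CPM in WT Wy, against 74.6 to 95.3 CPM in WT control. Of 7 stellate markers 2 fell with fenofibrate and 3 with Wy, with sums of 53.6 to 55.3 CPM in WT fenofibrate and 48.9 to 52.3 CPM in WT Wy, against 61.8 to 73.9 CPM in WT control. Of 5 cholangiocyte markers 1 fell with fenofibrate and 1 rose with Wy, with sums of 5.90 to 8.72 CPM in WT fenofibrate and 7.40 to 13.3 CPM in WT Wy, against 11.3 to 11.96 CPM in WT control. In KO livers 0 Kupffer, stellate and cholangiocyte markers were called with either agonist, 1 endothelial marker rose with each, and 1 hepatocyte marker fell with fenofibrate. Over all genes in KO, 0.133% were called higher and 0.105% lower with Wy, and 0.997% and 0.548% with fenofibrate. The hepatocyte sum was 34853 to 43007 CPM in KO fenofibrate and 43821 to 45287 CPM in KO Wy, against 46345 to 54212 CPM in KO control. The stellate sum was 76.4 to 78.7 CPM in KO fenofibrate and 82.2 to 86.2 CPM in KO Wy, against 79.1 to 81.1 CPM in KO control. No marker tested was at 0 in these groups, and the part of cell makeup in the members' changes was not tested.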

How the data were processed

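Liver RNA was read from stranded libraries (TruSeq Stranded mRNA, per the labels' protocols). The submitters' processing notes name bcl2fastq 2.17, Trimmomatic 0.30, TopHat2 2.0.8, Picard 1.84 and mm10. The deposited files hold raw read counts per locus and library, per the file headers; no source used here names the counting tool or its use of strand. Of 52463 loci, 31099 carried a gene identifier and entered the analysis. Left out were 12 rows that were blank or held totals, and 5 read columns whose names fit none of the samples.

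Counts were fitted with edgeR 4.0.16 in R 4.3.3: filterByExpr, TMM, 1 model with a coefficient for each of 6 groups (12 residual degrees of freedom, biological coefficient of variation 0.14), quasi-likelihood F-tests and Benjamini-Hochberg adjustment over 14241 genes, threshold 0.05. The interaction is the diet change in KO minus that in WT. Each log2 change is given ± its standard error, taken as the change divided by the square root of F. The fit was tested on simulated counts. Levels are CPM of the TMM effective library. Alternatives were DESeq2 1.42.0, other scalings (one without 23 Mup loci), no filter, a fit of only the groups compared, a replicate block, members that overlap no locus, and each of 18 libraries left out.

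Named members are the up to 5 largest rises and falls called in each comparison with a control, up to 3 in the others, the highest and lowest levels, and a set chosen by place in the ribosome; Mrpl51 and the other members of both subunits listed as rising, the pairs Mrpl46 with Mrps11 and Mrps12 with Sars2, and Mrpl34, Mrpl48 and Mrpl9 were named after their values were seen. Those listed as below their controls in KO Wy were also named after their values were seen. The members, the gene lists and the motifs were chosen with earlier results of these data known. Of each gene list the text names up to 4 genes. Mtrfr, Rcc1l, Mrm2, Mrm3, Twnk and Adgre1 were not found under these symbols. Windows before gene starts come from RefSeq GRCm38.p6, and locus types from GENCODE M21, on the same build as the counts.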

Additional observations from a re-analysis of the deposited data

Results flagged for a closer look

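The diet change differed between genotypes, by a test of the difference itself, for 32 of 74 members with Wy and for 12 with fenofibrate, where 14.1% and 11.6% of all genes were called lower, so that the fenofibrate count is close to the share of all genes. In each of them the change in KO minus that in WT was negative. The largest differences for Wy were those of Mrps18b, at -0.97 on the plus strand and -0.94 on the minus strand, and of Mrps6, at -0.94 on the log2 scale. Both Mrps18b loci may hold the same reads. For fenofibrate they were those of Mrpl45 at -0.80, Mrps18b on the minus strand at -0.74 and Mrpl15 at -0.73.

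A locus outside the comparisons, listed as Mrpl53/Ccdc142 without a gene identifier, held 7530 counts over the 18 libraries, 245 to 650 in each, where the Mrpl53 locus with an identifier held 7519. Reads may therefore have been counted at more than 1 locus.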

How the results depend on the processing

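Counts are of members called, higher or lower, of 74. With libraries scaled by their totals, 74 rose and 0 fell with Wy in WT, 72 rose and 0 fell with fenofibrate in WT, 61 were lower with Wy in KO, KO control against WT control gave 13 higher and 0 lower, and the interactions held 74 lower for Wy and 73 for fenofibrate, where of all genes 20.8% were lower with Wy in KO, 17.1% were higher in KO control, and 69.2% and 50.3% were lower in the interactions; the Mrpl23 estimates then turned to 0.42 with Wy and 0.25 with fenofibrate on chromosome 7, and to 0.29 with fenofibrate on chromosome 2. On that scale the median of all genes also moved, to -0.33 for Wy in KO, 0.32 between control genotypes, and -1.11 and -0.73 in the interactions, and the share of higher against lower calls over all genes in WT was 68.1% to 3.2% with Wy and 70.2% to 2.77% with fenofibrate. TMM without the Mup loci, no filter and the replicate block each left 0 falls with Wy and 1 with fenofibrate in WT. In fits of only the groups compared 43 rose with Wy in WT and the fenofibrate interaction held 7. Members that overlap no other locus, 38 tested, gave 12 rises with Wy, 13 with fenofibrate, 0 members higher in KO control, and 16 and 5 in the interactions. DESeq2 called 1 member lower with fenofibrate in KO. Without the Mrpl23 locus on chromosome 2, the plus-strand Mrps18b locus and Mrpl33, an alternative chosen after seeing the data, 26 rose with Wy, 22 rose and 1 fell with fenofibrate, and the interactions held 31 and 11. The causes were not tested, apart from the smaller number of members in these sets.

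Leaving out each library in turn gave 18 to 36 rises and 0 to 1 falls with Wy in WT, 11 to 30 rises and 0 to 2 falls with fenofibrate in WT, 0 to 2 members lower and 1 higher in KO control, and interactions of 18 to 38 for Wy and 6 to 25 for fenofibrate; both KO diet comparisons stayed at 0. Of the calls in the interactions 14 of 32 and 6 of 12 held in all 18 fits. Same-numbered libraries deviated from their group means with a correlation of -0.21 to 0.17 (over 0.1 in 6 of 45 pairs), and 7 of 18 libraries matched their own number best, so the numbers were not taken as pairs. The block gave 28 and 23 rises and interactions of 33 and 12. Low counts limit Mrpl33, with 726 in all libraries, and Mrps21 on chromosome 7, with 82.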
